A study of Mus musculus with 43 samples.

Results

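In all, 9 genes of hepatocytes around the central vein, all known to depend on WNT signalling, were followed across 2 tables of mouse liver RNA-seq. The genes were Glul, Axin2, Lgr5, Cyp2e1, Cyp1a2, Oat, Slc1a2, Rhbg and Tbx3, taken as the rows of each table that carry these symbols. Of the 9 genes, 8 had a row in both tables, among 14622 genes in the hemizygous and 13741 in the homozygous table, and Rhbg was not analysed here. The 8 rows all passed the filter on low values, which left 13596 and 13690 genes to test.

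All mice were male, 4 to 5 months old, and labelled with the strain C57BL6/J x FVBN. PiZ is a transgenic model of alpha-1-antitrypsin deficiency, in which the Z protein, a misfolded protease inhibitor, is retained in hepatocytes. LIRKO stands for a liver knockout of the insulin receptor, and F1KO for a further knockout of FOXO1, which insulin keeps out of the nucleus. Groups in the hemizygous table were 3 wild-type (WT) mice, 4 LIRKO mice, 5 PiZ mice labelled Z, 4 PiZ x LIRKO mice (Z LIRKO), 5 PiZ mice labelled Z with an asterisk (Zstar here) and 5 PiZ x LIRKO x F1KO mice (Z LIRKO F1KO). The homozygous table had 3 WT, 4 LIRKO, 3 ZZ and 7 ZZ LIRKO mice. Both tables hold the same 7 animals as WT and LIRKO, so the 43 libraries came from 36 mice. Zstar and Z LIRKO F1KO carry a different source label (F1IRZZ) from the other hemizygous groups (IRZZ), and the sources used here give neither the meaning of the asterisk nor the Cre line. A comparison across these labels therefore cannot be told apart from a difference between the mouse sets.

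WNT ligands and R-spondins released by endothelial cells of the central vein stabilise beta-catenin in the nearest hepatocytes, where it acts with TCF/LEF factors on target genes. Axin2 encodes a scaffold of the complex that degrades beta-catenin and is itself a target, so it is widely read as a feedback reporter. Lgr5 encodes an R-spondin receptor, and Tbx3 a T-box transcription factor of pericentral hepatocytes. Glul (glutamine synthetase), Slc1a2 (a glutamate transporter) and Oat (ornithine aminotransferase) serve the capture of ammonia as glutamine in the last cells before the vein. Cyp2e1 and Cyp1a2 encode cytochrome P450 enzymes that oxidise small molecules, and Cyp1a2 is also a target of the aryl hydrocarbon receptor.

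Promoter sequence from RefSeq (build GRCm38.p6, 250 bases before to 50 after a gene's start) was given for 6 of the 9 genes. TCF/LEF words (ATCAAAG or TTCAAAG on either strand) were found in the windows of Slc1a2, Cyp2e1 and Cyp1a2, and none in those of Glul, Axin2 and Oat. Of all 32851 promoter windows of this length, 8.65% held such a word, and 13.6% held TATAAA. The 3 windows are shown because they hold the words. All 6 genes with a window had a call in some comparison of these mice. A link between the words and a change therefore cannot be examined here. Capitals mark the TCF/LEF words and, in the Cyp windows, TATAAA. The windows lie at chr2:102706188-102706487 (plus strand, Slc1a2, at a start inside the annotated gene), chr7:140763569-140763868 (plus strand, Cyp2e1) and chr9:57683606-57683905 (minus strand, Cyp1a2).
Slc1a2: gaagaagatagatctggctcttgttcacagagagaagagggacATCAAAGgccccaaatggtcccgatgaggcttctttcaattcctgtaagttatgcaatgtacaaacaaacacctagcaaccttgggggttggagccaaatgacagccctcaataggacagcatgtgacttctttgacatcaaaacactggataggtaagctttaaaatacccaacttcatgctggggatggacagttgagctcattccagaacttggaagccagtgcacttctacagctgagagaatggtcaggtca
Cyp2e1: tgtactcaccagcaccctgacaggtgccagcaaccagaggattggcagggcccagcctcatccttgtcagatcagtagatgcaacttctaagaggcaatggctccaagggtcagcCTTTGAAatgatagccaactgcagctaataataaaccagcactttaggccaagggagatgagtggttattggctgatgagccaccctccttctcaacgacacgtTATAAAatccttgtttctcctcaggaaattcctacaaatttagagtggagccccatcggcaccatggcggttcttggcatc
Cyp1a2: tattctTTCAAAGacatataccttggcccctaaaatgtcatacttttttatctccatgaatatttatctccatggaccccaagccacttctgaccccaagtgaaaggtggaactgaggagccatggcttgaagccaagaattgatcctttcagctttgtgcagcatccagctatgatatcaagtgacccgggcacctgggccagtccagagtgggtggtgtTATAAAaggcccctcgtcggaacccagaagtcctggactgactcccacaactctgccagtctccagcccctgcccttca
Counted in bases from the start, the TCF/LEF word began at -207 in Slc1a2, at -135 in Cyp2e1, where the motif lies on the minus strand, and at -244 in Cyp1a2. TATAAA began at -31 in Cyp2e1 and at -29 in Cyp1a2. These are matches of letters, and binding was not measured.

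On GRCm38 (GENCODE M21) the genes lie apart, except that Oat and Cyp2e1 share a chromosome. Axin2 spans chr11:108920349-108950783 on the plus strand, Lgr5 chr10:115450311-115587780 on the minus strand and Tbx3 chr5:119670669-119684724 on the plus strand. Glul spans chr1:153899944-153909723 (plus), Slc1a2 chr2:102658659-102790784 (plus) and Oat chr7:132557478-132576398 (minus). Cyp2e1 spans chr7:140763739-140774987 (plus) and Cyp1a2 chr9:57676937-57683703 (minus).

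Values are log2 CPM, a read count relative to library size after the authors' scaling, and a difference of 1 is a 2-fold change. The libraries held 13.8 to 23.9 M reads in the hemizygous and 38.2 to 90.1 M in the homozygous table. Reads behind single values ran from 44 to 546 for Axin2 and from 80 to 401 for Lgr5 in the hemizygous table, and were at least 3937 in each of its libraries for Cyp1a2. Insr, the insulin receptor gene, stood at 7.04 to 7.24 in WT and at 5.75 to 6.10 in LIRKO (hemizygous table), and Foxo1 at 5.35 to 5.81 in Z LIRKO and 2.61 to 2.98 in Z LIRKO F1KO, so both targeted genes moved with the labels. Clock genes differed between groups. A clock value (late-phase minus early-phase clock genes, log2) averaged 0.29 in WT, 2.39 in Z, 2.91 in Zstar, 3.14 in Z LIRKO F1KO, 3.19 in LIRKO and 3.20 in Z LIRKO. Homozygous-table means were 0.27 in WT, 0.17 in ZZ, 1.55 in ZZ LIRKO and 3.4 in LIRKO. Hemizygous-table clock values ran from -0.73 to 1.48 in WT, 2.04 to 4.01 in LIRKO and 2.18 to 3.82 in Zstar. WT thus overlapped neither LIRKO nor Zstar, and in the homozygous table WT and LIRKO did not overlap either. In those comparisons with WT a fit with the clock value cannot separate clock from group. The pancreatic transcript Prss2 was above 0 log2 CPM in 2 of 3 WT mice in each table, in 2 of 4 Z LIRKO and 2 of 5 Z LIRKO F1KO mice, and in 1 mouse each of Z, Zstar and ZZ. Summed pancreas markers reached 1286 CPM in WT and 1745 CPM in Z LIRKO F1KO (hemizygous table). Of 8 hepatocyte markers 7 had a row, and they summed to between 51623 and 132481 CPM in the hemizygous libraries, so the label liver held.

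**Figure D1:**
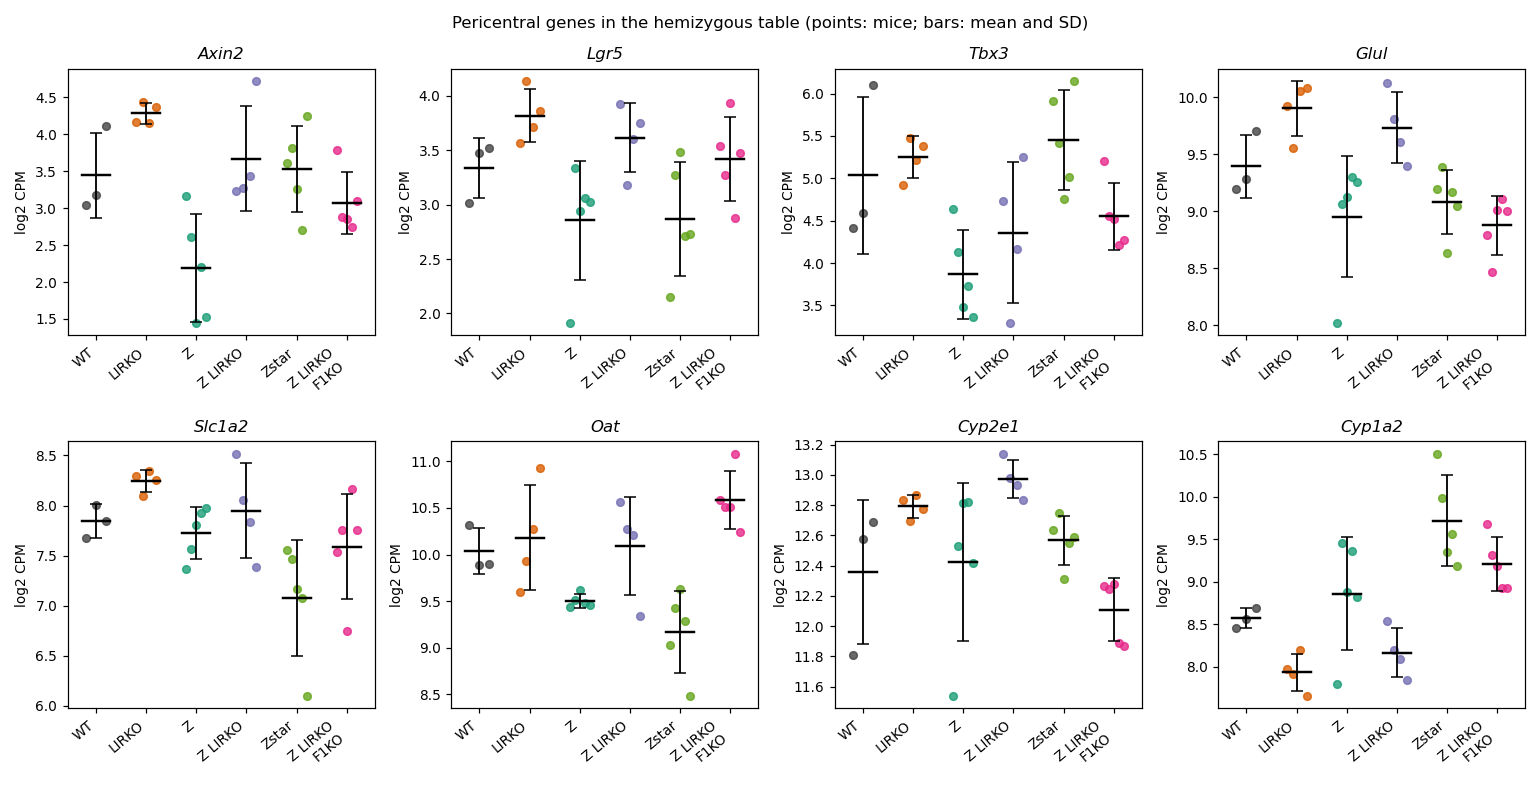
Log2 CPM (vertical axes) of the 8 genes in the 6 groups of the hemizygous table. Points are mice, and bars are means with SD. Axin2 was lowest in Z (1.44 to 3.17), and Cyp1a2 was highest in Zstar (9.19 to 10.51).

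**Figure D2:**
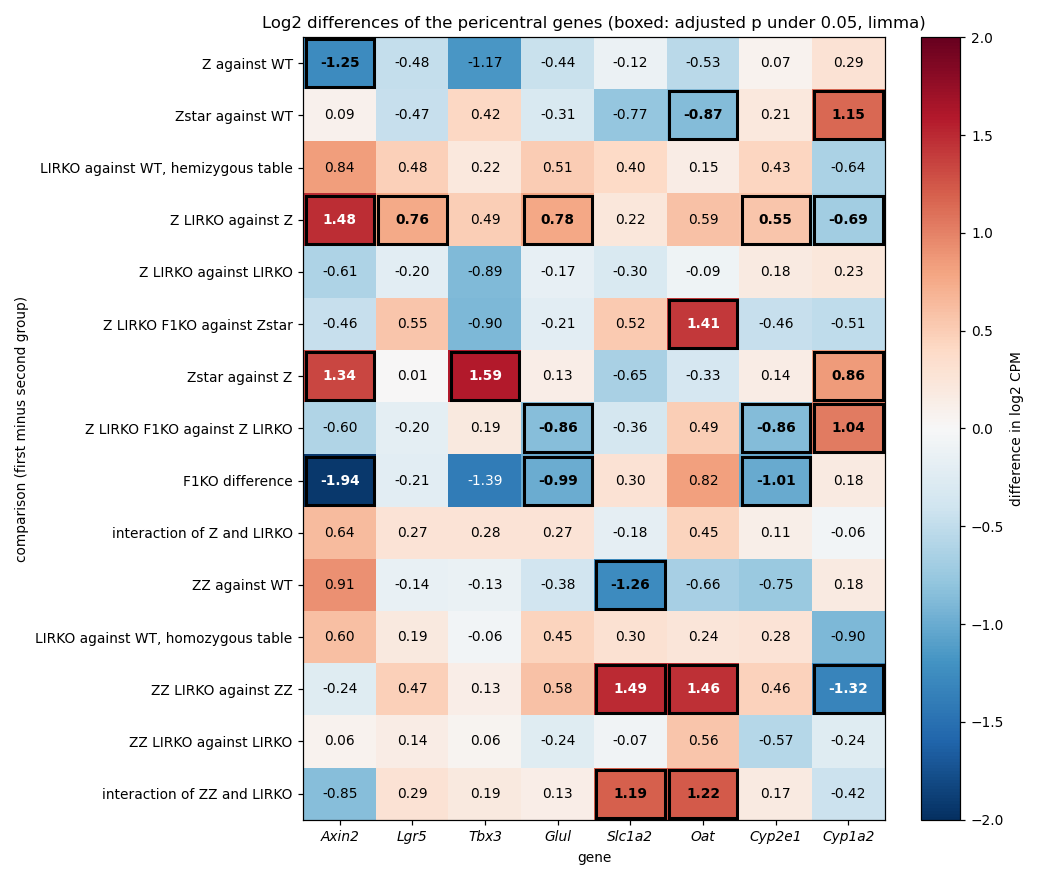
Differences in log2 CPM (colour and number) of the 8 genes (columns) in the 15 comparisons (rows), first minus second group. Boxes mark the 24 of 120 values with an adjusted p under 0.05 by limma. Z LIRKO against Z has the most boxes, with 5.

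The hemizygous transgene was compared with WT to ask what PiZ does to these genes when insulin signalling is intact. Axin2 fell in Z and the other 7 genes did not pass. Zstar mice gave another picture, in which Cyp1a2 rose and Oat fell. Axin2 stood at 3.04, 3.18 and 4.11 log2 CPM in WT and at 3.17, 2.61, 1.44, 2.20 and 1.53 in Z, so the groups overlapped in 1 Z mouse. The difference was -1.25 ± 0.38 (log2, SE; limma, adjusted p = 0.0357), and 10.4% of all genes passed in this comparison. Oat was lower in all 5 Z mice than in any WT mouse, and did not pass (-0.53 ± 0.27, adjusted p = 0.217). The Axin2 call was lost in 5 of 8 other settings and when any of 5 of the 8 mice was left out, with an adjusted p of 0.467 when the clock value entered the fit. Without WT mouse 1586 it was 0.0630, without WT mouse 1601 0.200, and without Z mouse 1442, 1443 or 1445 0.0918, 0.0594 or 0.0895. Tbx3 stood at 4.41, 4.59 and 6.10 in WT and at 3.36 to 4.64 in Z (-1.17 ± 0.40, adjusted p = 0.0601). It passed without Z mouse 1410 (0.0287) or WT mouse 1564 (0.0464).

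In Zstar, Cyp1a2 stood at 10.51, 9.99, 9.35, 9.56 and 9.19 against 8.45, 8.56 and 8.69 in WT. Every Zstar mouse was above every WT mouse, by a mean of 1.15 ± 0.29 (adjusted p = 0.00868, in a comparison in which 16% of genes passed). Oat stood at 9.03, 9.42, 9.63, 9.28 and 8.48 in Zstar against 10.32, 9.89 and 9.90 in WT, again with no overlap (-0.87 ± 0.27, adjusted p = 0.0295). Clock values did not overlap between Zstar and WT, so a fit with the clock value cannot separate clock from group. The Cyp1a2 and Oat calls were both lost in that fit (0.63, adjusted p = 0.342, and -0.88, adjusted p = 0.167). Both were also lost without libraries with Prss2 above 0 (1.36, adjusted p = 0.0587, and -1.27, adjusted p = 0.114), which left 1 WT mouse. The Oat call was also lost without WT mouse 1564, 1586 or 1601 or Zstar mouse 120 or 285, with adjusted p up to 0.137. Slc1a2 (-0.77 ± 0.28, adjusted p = 0.0615) was lower in all Zstar mice and passed without Zstar mouse 120 or 182 (0.0402 and 0.0488). The PiZ groups differed from each other, although both are labelled PiZ and stand in the hemizygous table. Zstar was above Z in Axin2 (1.34 ± 0.33, adjusted p = 0.0123), Tbx3 (1.59 ± 0.34, adjusted p = 0.00499) and Cyp1a2 (0.86 ± 0.25, adjusted p = 0.0318), where 9.47% of all genes passed. Tbx3 was at 5.91, 5.42, 4.76, 5.02 and 6.15 in Zstar and at 4.64, 4.13, 3.48, 3.73 and 3.36 in Z. The lowest Zstar mouse was thus above the highest Z mouse. Calls of Axin2 and Tbx3 held with each of the 10 mice left out in turn, and that of Cyp1a2 was lost without Z mouse 1410, 1442 or 1445 or Zstar mouse 120 or 182, with adjusted p up to 0.101.

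With the homozygous transgene, Slc1a2 was the gene that fell. It stood at 7.45, 7.78 and 7.50 in WT and at 6.09, 6.04 and 6.82 in ZZ, with no overlap. The difference was -1.26 ± 0.21 (adjusted p = 3.27e-04), in a comparison in which 30.3% of all genes passed, so 1 of 8 is below the background. Leaving out each of the 6 mice in turn gave -1.51 to -1.13, and the call held each time. Oat (-0.66 ± 0.25, adjusted p = 0.0557) and Axin2 (0.91 ± 0.38, adjusted p = 0.0834) did not pass, and Axin2 lay in the opposite direction from the hemizygous Z mice. Axin2 stood at 4.63, 4.35 and 4.35 in ZZ and at 3.26, 3.11 and 4.23 in WT. It passed without WT mouse 1601 (1.26, adjusted p = 0.0281) and with library sizes from the plain sum of reads (1.18, adjusted p = 0.0274), a scaling that moved the median of all genes to 0.23 from -0.04. Oat passed without ZZ mouse 1846 (-0.86, adjusted p = 0.0256), and Cyp2e1 (-0.75) without WT mouse 1564 (-1.05, adjusted p = 0.0427).

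The ZZ livers carried more marker transcripts of some other cell types. Of 6 cholangiocyte markers 5 rose against WT and none fell, and their summed level was 206 to 246 CPM in ZZ against 48.3 to 70.7 in WT. Among 10 stellate cell markers 8 rose (752 to 872 against 304 to 343 CPM), and 5 of 7 hepatocyte markers fell. Summed endothelial markers did not rise (233 to 258 CPM in ZZ against 248 to 295 in WT). The part of these markers in the Slc1a2 difference was not tested. In bulk liver RNA, fewer cells of a type and less RNA per cell cannot be told apart.

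Loss of the insulin receptor on its own was measured in both tables, on the same 7 mice. By limma none of the 8 genes passed, where 23.7% of all genes passed in the hemizygous and 27.8% in the homozygous fit. Unadjusted p was under 0.05 for 3 genes in the first and for 1 in the second. In the hemizygous table, 5 of the 8 genes had no overlap between LIRKO and WT, as had 36.4% of all genes. Axin2, Lgr5, Slc1a2 and Cyp2e1 were higher in all 4 LIRKO mice, and Cyp1a2 was lower in all 4. On the same mice in the homozygous table Cyp1a2 alone had no overlap, 1 of 8 beside 39.6% of all genes, and the other 4 overlapped. Axin2 stood at 4.17, 4.44, 4.15 and 4.37 in LIRKO (0.84 ± 0.40 above WT, adjusted p = 0.130). Cyp1a2 stood at 7.97, 7.91, 8.19 and 7.66 (-0.64 ± 0.30, adjusted p = 0.132). Glul was at 9.92, 9.56, 10.05 and 10.08 in LIRKO and at 9.20, 9.28 and 9.71 in WT (0.51 ± 0.24, adjusted p = 0.133). The Axin2 and Cyp1a2 differences passed when the fit held the LIRKO and WT mice alone (adjusted p = 0.0292 and 0.00810) and with the clock value in it (1.62 and -1.21). In the homozygous table Cyp1a2 was 0.90 ± 0.40 lower (adjusted p = 0.104) and Axin2 0.60 ± 0.36 higher (adjusted p = 0.223). With the clock value in that fit the Cyp1a2 difference was -1.48 and passed, and that of Axin2 was 0.18 and did not. The clock values of LIRKO and WT did not overlap, so fits with the clock value cannot separate clock from group here. Of 9 macrophage markers 5 rose in the hemizygous and 6 in the homozygous table. Summed hepatocyte markers were lower in LIRKO than in WT (51623 to 83601 against 111643 to 132481 CPM, hemizygous table). Endothelial (439 to 464 against 344 to 394 CPM) and stellate sums (430 to 464 against 312 to 367 CPM) were higher. None of these sums overlapped in the homozygous table either, with the same directions. The part of these markers was not tested.

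Loss of the insulin receptor in hemizygous PiZ mice gave the most changes. Axin2, Glul, Lgr5 and Cyp2e1 rose and Cyp1a2 fell in Z LIRKO against Z, 5 of 8 genes where 34.3% of all genes passed. The median difference of the 8 genes was 0.57, beside 0.02 over all genes. Axin2 stood at 3.24, 3.28, 3.44 and 4.73 in Z LIRKO against 1.44 to 3.17 in Z, so every Z LIRKO mouse was above every Z mouse. The difference was 1.48 ± 0.35 (2.79-fold, adjusted p = 0.00227). Lgr5, the R-spondin receptor, stood at 3.93, 3.18, 3.60 and 3.75 in Z LIRKO and at 1.91, 3.34, 2.94, 3.06 and 3.02 in Z (0.76 ± 0.26, adjusted p = 0.0282). Its groups overlapped.

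Glul, glutamine synthetase, stood at 10.12, 9.81, 9.61 and 9.40 in Z LIRKO and at 8.02, 9.06, 9.12, 9.30 and 9.26 in Z. These groups did not overlap, and the difference was 0.78 ± 0.21 (1.72-fold, adjusted p = 0.00686). Cyp2e1 stood at 13.14, 12.98, 12.94 and 12.83 in Z LIRKO against 11.54, 12.53, 12.82, 12.82 and 12.42 in Z, again with no overlap (0.55 ± 0.21, adjusted p = 0.0472). Cyp1a2 went the other way, from 7.80, 9.46, 8.88, 9.36 and 8.82 in Z to 8.54, 8.20, 8.09 and 7.84 in Z LIRKO (-0.69 ± 0.27, adjusted p = 0.0461). Its lowest Z mouse was below all Z LIRKO mice. Oat (0.59 ± 0.25, adjusted p = 0.0648), Tbx3 (0.49 ± 0.37, adjusted p = 0.312) and Slc1a2 (0.22 ± 0.26, adjusted p = 0.538) did not pass. Oat passed without Z LIRKO mouse 1450 (0.84, adjusted p = 0.0120).

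Axin2 and Glul held in each of the 8 other settings and with each of the 9 mice left out. Of these settings Cyp2e1 was lost in 4 (adjusted p up to 0.160), among them the fit with the clock value, Cyp1a2 in 2 (up to 0.0898) and Lgr5 in 1, the clock value (0.0586). The Cyp2e1 call held only without Z mouse 1442 or 1443, and that of Cyp1a2 only without Z mouse 1410 or Z LIRKO mouse 1412, with adjusted p up to 0.150 and 0.140 otherwise. Lgr5 was lost without Z mouse 1410 or Z LIRKO mouse 1412, 1428 or 1450, with adjusted p up to 0.0911. Z mouse 1410, the lowest of its group in Glul, Lgr5, Cyp2e1 and Cyp1a2, weighed on several of these. Without it Glul differed by 0.55, Cyp2e1 by 0.33 (adjusted p = 0.150), Lgr5 by 0.52 (adjusted p = 0.0911) and Cyp1a2 by -0.96. Markers of other cells rose in the same comparison. Of 10 endothelial markers 7 rose (434 to 555 CPM in Z LIRKO against 299 to 394 in Z), and of 9 macrophage markers 8 rose (799 to 953 against 446 to 646). Summed stellate markers were higher (465 to 570 against 345 to 459 CPM) and summed hepatocyte markers lower (61751 to 67751 against 77462 to 117209 CPM). The part of these markers in these results was not tested. Against LIRKO without the transgene, Z LIRKO showed no call among the 8 genes by limma (1 had an unadjusted p under 0.05), where 1.1% of all genes passed. The interaction of Z and LIRKO also called none (no unadjusted p under 0.05), where 0.199% passed.

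**Figure D3:**
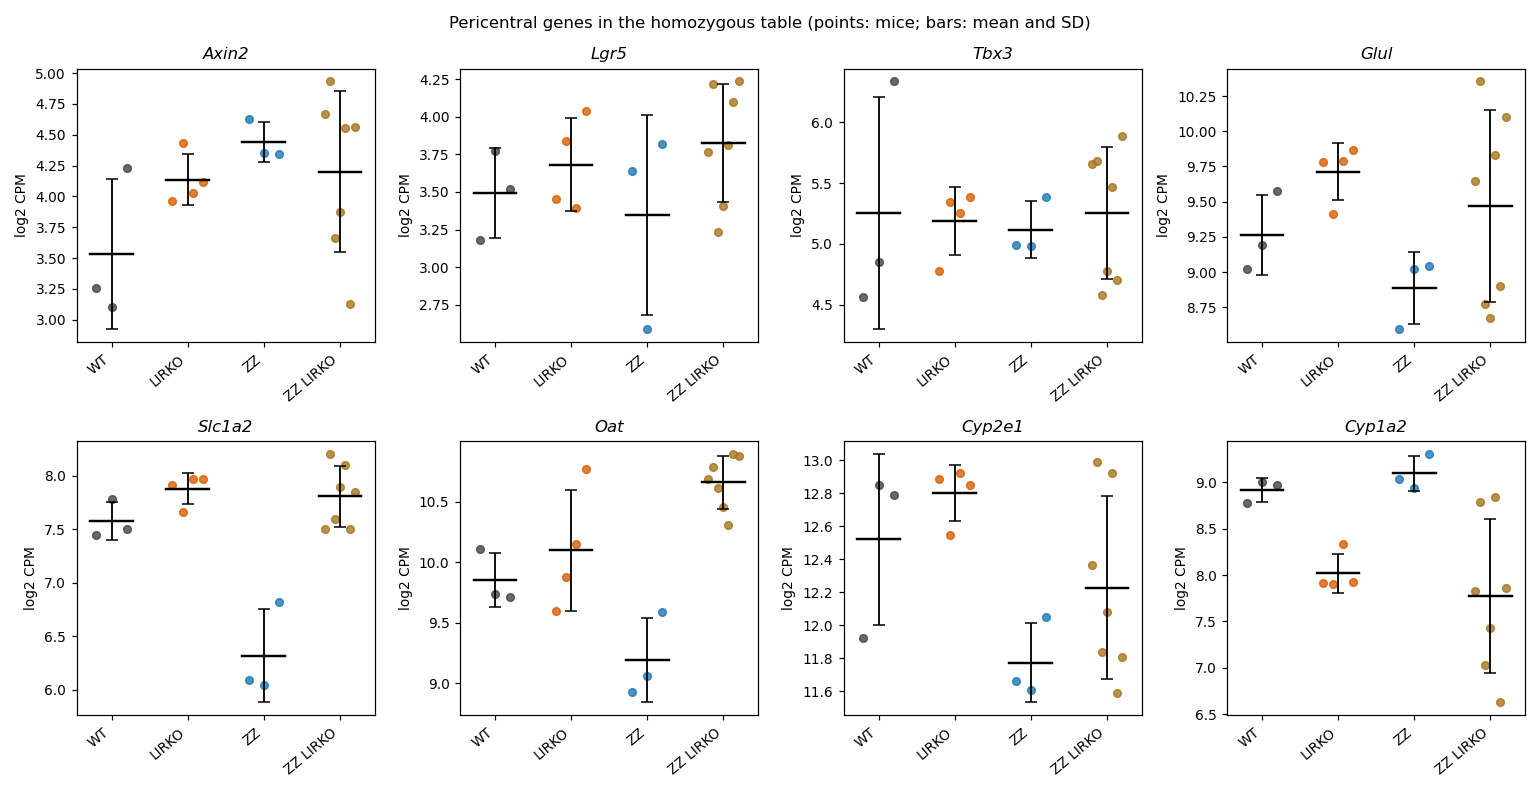
Log2 CPM (vertical axes) of the 8 genes in the 4 groups of the homozygous table. Points are mice, and bars are means with SD. Slc1a2 and Oat are lowest in the 3 ZZ mice, and Glul and Cyp1a2 spread widest in the 7 ZZ LIRKO mice.

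In homozygous PiZ mice, loss of the insulin receptor moved 3 of these genes past the threshold, among them Cyp1a2, as in hemizygous PiZ mice. Effects in hemizygous and homozygous mice were not tested against each other. Slc1a2 and Oat rose and Cyp1a2 fell in ZZ LIRKO against ZZ, 3 of 8 genes where 26.8% of all genes passed. Slc1a2 ran from 7.50 through a median of 7.85 to 8.21 in the 7 ZZ LIRKO mice, above the 6.04 to 6.82 of ZZ (1.49 ± 0.18, 2.82-fold, adjusted p = 2.70e-05). Oat ran from 10.31 through 10.68 to 10.89, against 8.93, 9.06 and 9.59 in ZZ (1.46 ± 0.21, 2.76-fold, adjusted p = 1.25e-04). Neither gene overlapped between the groups. Both calls held in each of the 7 other settings and with each of the 10 mice left out. Cyp1a2 ran from 6.63 through 7.83 to 8.84 in ZZ LIRKO, below the 9.04, 8.94 and 9.31 of ZZ (-1.32 ± 0.36, adjusted p = 0.0125). That call was lost without ZZ mouse 1846 (-1.22, adjusted p = 0.0550), the ZZ library with Prss2 above 0.

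Glul ranged from 8.67 to 10.36 in ZZ LIRKO and from 8.59 to 9.04 in ZZ, and the difference of 0.58 ± 0.31 did not pass (adjusted p = 0.180). Axin2 (-0.24 ± 0.32), Lgr5 (0.47 ± 0.26), Tbx3 (0.13 ± 0.34) and Cyp2e1 (0.46 ± 0.29) did not pass either. The effect of insulin receptor loss differed between ZZ and WT backgrounds for Oat (interaction 1.22 ± 0.31, adjusted p = 0.0282) and Slc1a2 (1.19 ± 0.26, adjusted p = 0.0137), 2 of 8 genes where 7.75% of all genes passed. The Oat interaction was lost in 6 of the 17 fits with a mouse left out, with adjusted p up to 0.0842. These were the fits without ZZ mouse 1682 or 1809, WT mouse 1564 or LIRKO mouse 1468, 1474 or 1483. The Slc1a2 interaction was lost in 1, without ZZ mouse 1682 (1.08, adjusted p = 0.0502). ZZ LIRKO against LIRKO called none of the 8 (2 had an unadjusted p under 0.05, and 10.6% of all genes passed). There, Oat passed without LIRKO mouse 1600 (0.79, adjusted p = 0.0112). All 6 cholangiocyte markers fell in ZZ LIRKO against ZZ (41.9 to 65.7 against 206 to 246 CPM), and 6 of 10 endothelial markers rose and 1 fell. Their part was not tested.

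FOXO1 was removed on top of the insulin receptor to ask which effects need it. No group lost FOXO1 alone, so the change from Zstar is that of joint loss. Against Zstar, the PiZ mice under the same source label, Oat was the gene that rose in Z LIRKO F1KO. It stood at 10.59, 10.51, 10.50, 11.08 and 10.24 against 8.48 to 9.63 in Zstar, with no overlap. The difference was 1.41 ± 0.23 (2.67-fold, adjusted p = 1.34e-04), where 23.5% of all genes passed, and it held in each of 7 settings and with each of 10 mice left out. Macrophage markers rose in 9 of 9 cases (746 to 1429 against 361 to 426 CPM) and endothelial markers in 5 of 10, and their part was not tested. None of Axin2 (-0.46 ± 0.33), Glul (-0.21 ± 0.20) and Cyp2e1 (-0.46 ± 0.20) passed, although Cyp2e1 was lower in every Z LIRKO F1KO mouse than in any Zstar mouse. Tbx3 (-0.90 ± 0.34, adjusted p = 0.0598) passed without Z LIRKO F1KO mouse 169 or Zstar mouse 249, Lgr5 (0.55 ± 0.25) without Zstar mouse 249, and Slc1a2 (0.52 ± 0.24) without Z LIRKO F1KO mouse 201.

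Glul and Cyp2e1 fell and Cyp1a2 rose when Z LIRKO F1KO was set against Z LIRKO, where 22.5% of all genes passed. Glul stood at 8.79, 8.47, 9.01, 9.11 and 9.0 in Z LIRKO F1KO, below the 9.40 to 10.12 of Z LIRKO (-0.86 ± 0.21, 1.81-fold lower, adjusted p = 0.00515). Cyp2e1 stood at 12.26, 12.24, 12.28, 11.89 and 11.87, below 12.83 to 13.14 (-0.86 ± 0.21, adjusted p = 0.00457). Cyp1a2 stood at 9.68, 9.32, 9.18, 8.92 and 8.93, above 7.84 to 8.54 (1.04 ± 0.27, adjusted p = 0.00629). All 3 genes were without overlap and held in each of the 7 settings and with each of the 9 mice left out. Axin2 did not pass here (-0.60 ± 0.35, adjusted p = 0.232). Insr was also lower in Z LIRKO F1KO (mean 5.20) than in Z LIRKO (mean 5.84), by limma -0.64 ± 0.10 (adjusted p = 6.13e-05). Its part was not tested. This comparison crosses the source labels, as does the next.

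The F1KO difference sets the change from Zstar to Z LIRKO F1KO against the change from Z to Z LIRKO. It was negative for Axin2 (-1.94 ± 0.48, adjusted p = 0.0164), Cyp2e1 (-1.01 ± 0.29, adjusted p = 0.0384) and Glul (-0.99 ± 0.29, adjusted p = 0.0430), 3 of 8 genes where 6.63% of all genes passed. For Axin2 the -1.94 is the -0.60 between Z LIRKO F1KO and Z LIRKO less the 1.34 between Zstar and Z, the PiZ mice under the 2 source labels. It held with each of the 19 mice left out. The Glul call was lost with 12 of the 19 (adjusted p up to 0.0919), and held without Z mouse 1411, 1443 or 1445, Z LIRKO mouse 1450, Z LIRKO F1KO mouse 206 or 207, or Zstar mouse 249. The Cyp2e1 call was lost with 9 (up to 0.0703), namely Z mouse 1445, any of the 4 Z LIRKO mice, Z LIRKO F1KO mouse 206 or 207, and Zstar mouse 120 or 182. Each of these 2 calls was lost in 2 of the 7 other settings. Both were lost when the fit held only the 4 groups compared (0.0679 and 0.0550). The Cyp2e1 call was also lost without libraries with Prss2 above 0 (-0.71, adjusted p = 0.117). Tbx3 (-1.39 ± 0.50, adjusted p = 0.0950) passed without Z LIRKO mouse 1427 (-1.75, adjusted p = 0.0281). For Oat the difference was 0.82 ± 0.34 (adjusted p = 0.145). For Cyp1a2 it was 0.18 ± 0.37 (adjusted p = 0.815).

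Ordered by group mean, the hemizygous table put LIRKO first for Axin2 (4.28 ± 0.14, SD, n = 4), followed by Z LIRKO (3.67 ± 0.71, n = 4), Zstar (3.53 ± 0.58, n = 5), WT (3.44 ± 0.58, n = 3), Z LIRKO F1KO (3.07 ± 0.42, n = 5) and Z (2.19 ± 0.73, n = 5). Means of Z LIRKO, Zstar and WT lay within 1 SD of each other. For Glul the order was LIRKO (9.90 ± 0.24), Z LIRKO (9.73 ± 0.31), WT (9.39 ± 0.27), Zstar (9.08 ± 0.28), Z (8.95 ± 0.53) and Z LIRKO F1KO (8.88 ± 0.26), and the last 3 groups did not differ beyond their SD. Cyp1a2 ran from Zstar (9.72 ± 0.53) and Z LIRKO F1KO (9.21 ± 0.32) down to Z LIRKO (8.17 ± 0.29) and LIRKO (7.93 ± 0.22). Oat was highest in Z LIRKO F1KO (10.58 ± 0.31) and lowest in Zstar (9.17 ± 0.44). In the homozygous table ZZ was lowest in Glul (8.89 ± 0.25), Cyp2e1 (11.77 ± 0.24), Oat (9.19 ± 0.35) and Slc1a2 (6.32 ± 0.43), and in Lgr5 and Tbx3 by less than 1 SD. It was highest in Axin2 (4.44 ± 0.16) and Cyp1a2 (9.10 ± 0.19), by 0.24 above ZZ LIRKO and 0.18 above WT. Only in Oat and Slc1a2 did ZZ not overlap the nearest group. The 7 mice in both tables gave correlated values, with Pearson's r from 0.73 (Lgr5) to 0.99 (Glul). These are the same animals, so this describes repeatability of measurement only.

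**Figure D4:**
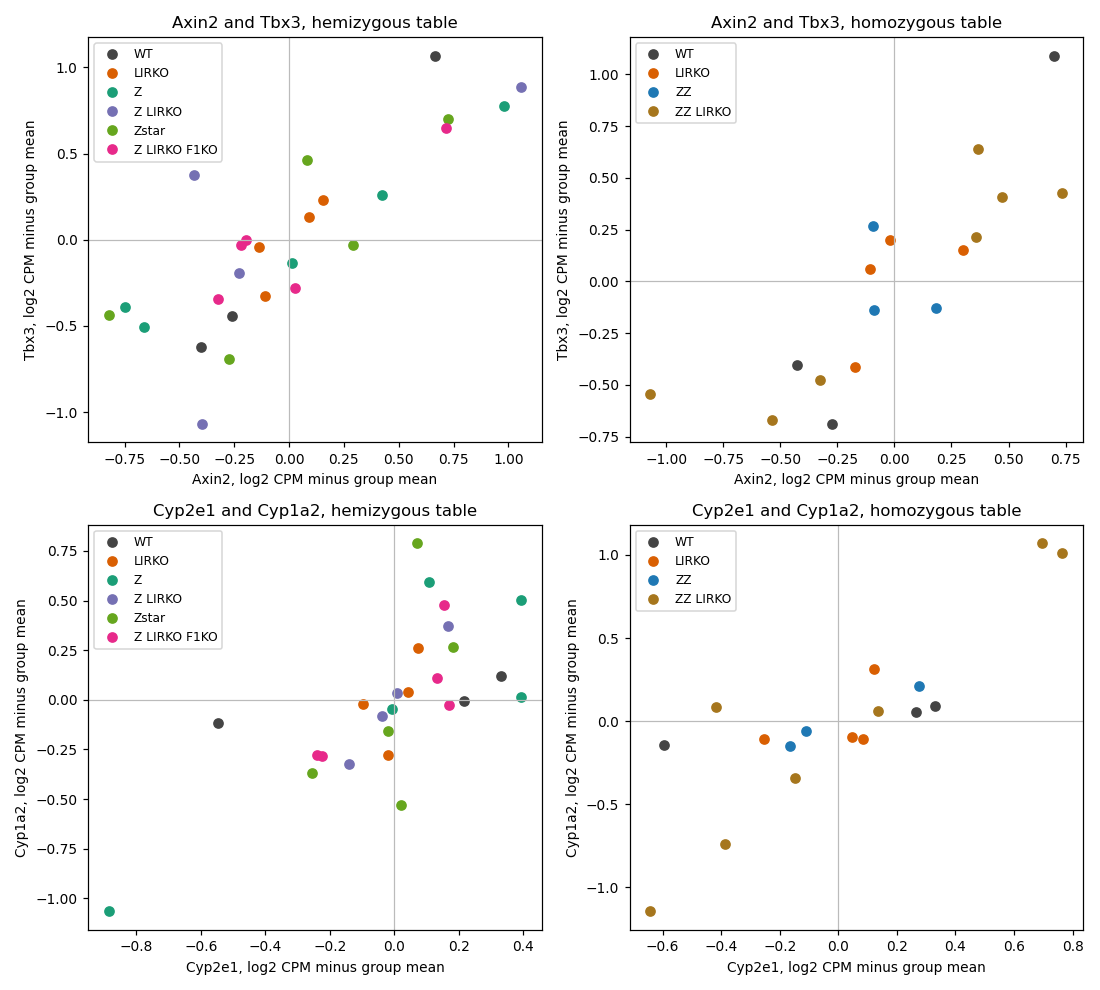
Deviations of each mouse from its group mean (log2 CPM), Tbx3 against Axin2 in the upper panels and Cyp1a2 against Cyp2e1 in the lower panels, for the hemizygous (left) and homozygous (right) tables. Colours are groups. Points rise from lower left to upper right, with r of 0.82 and 0.84 above and 0.70 and 0.84 below.

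Mice of the same group also differed from each other in a shared way. Correlations of the deviations from group means were computed for all 28 pairs of genes in both tables, 56 relations, with 100000 permutations of mice within groups. Of these, 7 had an adjusted p under 0.05 (2 hemizygous, 5 homozygous), and all 7 were positive. Axin2 and Tbx3 moved together over the 26 hemizygous libraries (r = 0.82, adjusted permutation p = 0.00112; rho = 0.82, adjusted 0.00140; r = 0.77 without the 2 libraries farthest in Axin2). The pair gave r = 0.84 over the 17 homozygous libraries (adjusted permutation p = 0.0312; rho = 0.89, adjusted 0.0288; 0.88 without 2). Cyp2e1 and Cyp1a2, the P450 genes, gave r = 0.70 (adjusted permutation p = 0.0114; rho = 0.75, adjusted 0.00140; 0.57 without 2) and r = 0.84 (adjusted permutation p = 0.00784; rho = 0.81, adjusted 0.0248; 0.74 without 2). Between groups these P450 genes went in opposite directions in Z LIRKO against Z. Glul with Tbx3 (r = 0.75, rho = 0.86), Cyp2e1 with Slc1a2 (r = 0.70, rho = 0.66) and Cyp1a2 with Slc1a2 (r = 0.68, rho = 0.66) had an adjusted permutation p of 0.0312 for r in the homozygous table. For the last 2 of these the adjusted p for rho was 0.0733 and 0.0808. The 7 mice shared by the tables enter both.

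Slopes on the clock value did not pass for any of the 8 genes in either table. Within groups of the hemizygous table the slope on the clock value was positive for Cyp2e1 (0.19 ± 0.06 log2 per unit), Glul (0.18 ± 0.06) and Cyp1a2 (0.20 ± 0.08) and negative for Axin2 (-0.27 ± 0.11). None of the 8 passed in limma (4 had an unadjusted p under 0.05), where 0.934% of all genes passed. In the homozygous table none passed (2 had an unadjusted p under 0.05), where 8.67% of all genes did, and the slopes were 0.18 ± 0.06 for Cyp2e1, 0.02 ± 0.08 for Glul, 0.19 ± 0.08 for Cyp1a2 and 0.14 ± 0.08 for Axin2, so that of Axin2 had the other sign.

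The 3 genes whose values ran closest to each member over the 26 hemizygous libraries are given as a description, with r there and then over the 17 homozygous libraries. Axin2 ran closest to Osgin1 (0.83, then 0.59), Timm50 (0.83, then 0.20) and Zbtb39 (0.82, then 0.00). Lgr5 ran with Ephb4 (0.81, then 0.37), Nkd1 (0.78, then 0.46) and Igf2bp2 (0.78, then 0.58), and Tbx3 with Iffo2 (0.83, then 0.44), Axin2 (0.79, then 0.67) and Vps37b (0.79, then 0.25). For Glul the nearest genes were Scarb1 (0.83, then 0.31), Hpd (0.82, then 0.41) and Cyp2c37 (0.82, then 0.64). For Slc1a2 they were Upp1 (0.76, then -0.26), Myadm (0.76, then 0.08) and Lrrc8c (0.75, then 0.56), so the first of these turned round in the other table. Oat ran with Lhpp (0.85, then 0.89), Pla2g7 (0.80, then 0.50) and Dse (0.78, then 0.55). Cyp2e1 was nearest to Pcx (0.89, then 0.50), Cyp2c54 (0.89, then 0.86) and Lect1 (0.89, tested in the hemizygous table alone), and Cyp1a2 to Gba2 (0.94, then 0.63), Rgp1 (0.90, then 0.64) and Plcg1 (0.88, then 0.89). Libraries of a group share their genotype, so these values hold group differences too.

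**Figure D5:**
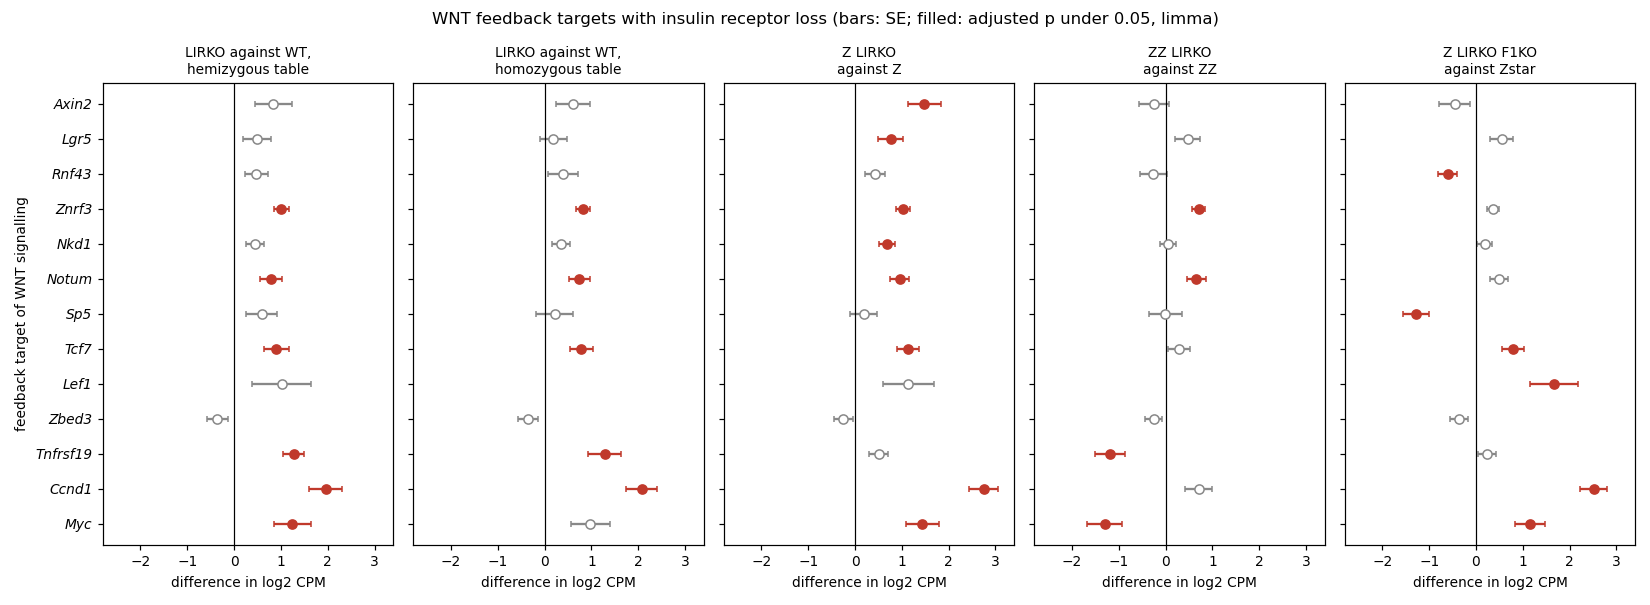
Differences in log2 CPM (horizontal axes, points with SE) of the WNT feedback targets with a tested row, Axin2 and Lgr5 included, in 5 comparisons with loss of the insulin receptor. Filled points had an adjusted p under 0.05 by limma. Ccnd1 lies at 1.96 and 2.08 in LIRKO against WT and at 2.74 in Z LIRKO against Z.

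Among WNT feedback targets, those that passed with insulin receptor loss in LIRKO against WT and in Z LIRKO against Z were all higher. In LIRKO against WT, 6 of the 11 targets other than Axin2 and Lgr5 rose and none fell in the hemizygous table (median 0.90, beside 0.01 over all genes), and 5 of 10 rose and none fell in the homozygous table. Of all genes 11.8% and 13.8% rose there. Znrf3, a ubiquitin ligase that removes WNT receptors, rose by 1.0 ± 0.16 (adjusted p = 6.85e-05), and Notum, a secreted enzyme that inactivates WNT, by 0.78 ± 0.23. Tnfrsf19 (1.27 ± 0.23) and Ccnd1, the cell cycle gene cyclin D1 (1.96 ± 0.35), rose as well. With the clock value in the fit, 3 of the 6 calls and 2 of the 5 calls were kept and none was added. In Z LIRKO against Z 6 of 11 rose and none fell (median 0.95), where 16.7% of all genes rose, with Ccnd1 at 2.74 ± 0.31, Tcf7, a TCF factor, at 1.13 ± 0.24, Znrf3 at 1.03 ± 0.14 and Notum at 0.95 ± 0.21. Ccnd1 has inputs other than WNT, and endothelial and macrophage markers rose beside these genes, as given above.

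Counts were mixed or smaller in the other comparisons. Z LIRKO F1KO against Zstar had 4 of 11 higher and 2 lower, with Ccnd1 at 2.51 ± 0.29 and Sp5, a transcription factor, at -1.28 ± 0.28. Of all genes 12.4% were higher and 11.1% lower there. With plain-sum library sizes 6 of the 11 were higher and 1 lower. The F1KO difference was negative for Sp5 (-1.46 ± 0.41), Rnf43 (-1.04 ± 0.29) and Znrf3 (-0.67 ± 0.19) and positive for none of the 11. With plain-sum sizes 1 of these 3 calls was kept. Of all genes 3.35% passed as negative and 3.27% as positive. In ZZ against WT 3 of 10 rose (5 of 10 with plain-sum sizes), Myc (2.14 ± 0.44), Tnfrsf19 (1.66 ± 0.38) and Ccnd1 (1.38 ± 0.35), where 16.1% of all genes rose. In ZZ LIRKO against ZZ, Znrf3 (0.71 ± 0.14) and Notum (0.65 ± 0.20) rose and Tnfrsf19 (-1.19 ± 0.32) and Myc (-1.3 ± 0.38) fell. Of all genes 13.2% rose and 13.6% fell there. With plain-sum sizes 1 of 10 targets rose and 2 fell.

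Ligands moved unevenly. Wnt5a, a ligand best known for signalling without beta-catenin, fell in LIRKO against WT (-1.65 ± 0.30, adjusted p = 2.67e-04) and in Z LIRKO against Z (-2.10 ± 0.26, adjusted p = 1.99e-06). It rose in Z LIRKO F1KO against Z LIRKO (2.59 ± 0.26, adjusted p = 1.3e-07). Rspo3, the R-spondin of the central vein, rose in Z LIRKO against Z (0.70 ± 0.14), as did Wnt2 (1.05 ± 0.24) and Wls, which carries WNT ligands to the cell surface (0.54 ± 0.16). Rspo3 fell in Z LIRKO F1KO against Z LIRKO (-0.44 ± 0.14), a call that was lost with plain-sum sizes. In ZZ against WT 5 of 10 ligands and modulators rose and none fell, among them Wnt9b (1.3 ± 0.29) and Wls (1.06 ± 0.13), where 16.1% of all genes rose. Stellate markers (8 of 10) and cholangiocyte markers (5 of 6) rose in the same comparison, and their part was not tested.

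Other pericentral genes did not move as a block. Of 28 such genes 7 rose and 4 fell in LIRKO against WT (hemizygous table), where 23.7% of all genes passed, and 4 rose and 8 fell in Z LIRKO against Z, where 34.3% did. Cyp2c37, a P450 gene, rose by 2.61 ± 0.37 in Z LIRKO against Z and by 3.72 ± 0.33 in ZZ LIRKO against ZZ, and fell by 3.80 on the log2 scale in Z LIRKO F1KO against Z LIRKO. Gstm3, a glutathione transferase gene, rose by 4.3 ± 0.41 in ZZ against WT and was at -3.16 ± 0.35 in ZZ LIRKO against ZZ. Of 24 periportal genes, 15 rose and 2 fell in ZZ LIRKO against ZZ, the comparison in which Slc1a2 and Oat rose. Of all genes 13.2% rose and 13.6% fell there. The median of the periportal genes was 0.95, beside -0.01 over all genes, and with plain-sum sizes 11 rose and 3 fell. Among other genes of glutamine and ammonia handling, Aqp8, a water channel that also passes ammonia, fell in LIRKO against WT (-3.43 ± 0.37), Z LIRKO against Z (-2.84 ± 0.32) and ZZ LIRKO against ZZ (-2.77 ± 0.34). Glud1, glutamate dehydrogenase, fell in Z LIRKO against Z (-0.83 ± 0.13). Aldh18a1, which makes the precursor of proline and ornithine from glutamate, rose in ZZ against WT (3.03 ± 0.36). Of the 8 tested genes of the aryl hydrocarbon receptor list other than Cyp1a2, none passed in Z LIRKO F1KO against Z LIRKO. Cyp1a2 rose there, and 22.5% of all genes passed. In Z LIRKO against Z Cyp1b1, another P450 gene of that list, rose (1.29 ± 0.36), where Cyp1a2 fell. The part of this receptor was not tested.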

How the data were processed

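Liver RNA-seq of 43 libraries from 36 mice in 10 groups was analysed. The deposited values are log2 CPM (named moderated in the labels). STAR (2.0.4b), Subread, featureCounts (1.4.5) and the build GRCm38 are named by the submitters' processing notes, and the strand setting is not given in the sources used here. After adding 0.5 reads and dividing by an effective library size, whole reads gave back 100% of the values within 0.01 reads. That size was 0.875 to 1.14 (hemizygous) and 0.900 to 1.18 (homozygous) times the sum of reads, so a scaling was applied. Before testing, 115 and 55 repeated lines were dropped. Of the columns of per-sample values, 1 (hemizygous) matched no label and was not used.

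limma (3.58.1, R 4.3.3) was fitted to the deposited log2 CPM with 1 mean for each group, all groups of the table together, and a variance trend. A gene was tested if 3 or more libraries reached 0 log2 CPM. The Benjamini-Hochberg method adjusted the two-sided p-values over every gene tested, with a threshold of 0.05. Tables were scaled separately and tested separately. Every adjusted p of a difference or slope comes from this test, and p-values measure the spread between these mice. On simulated data for Z LIRKO against Z (13596 genes) the fit recovered 36% of 1.5-fold and 77.6% of 2-fold changes, with 5.24% wrong calls. For LIRKO against WT (hemizygous, 13596 genes) it recovered 35.2% and 60.8%, with 5.03% wrong. The simulation changed a far smaller share of genes than the 34.3% and 23.7% called in the data. These rates therefore need not hold for the tests reported here.

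Members were named throughout, with Insr and Foxo1. From each gene list up to 4 passing genes with the smallest adjusted p could be named, and for likeness the 3 genes with the highest r. Members and lists were chosen with earlier results of these data known, and the correlations between members and the clock slopes were added after values were seen. Alternatives covered the filter, log2(CPM + 1), plain-sum library sizes, voom weights, the groups in the fit, the clock value, libraries with Prss2 above 0, Z and Zstar averaged, and each mouse left out.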

Additional observations from a re-analysis of the deposited data

Results flagged for a closer look

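A single mouse stood apart from its group in 5 of 56 gene and group pairs with 4 to 7 mice. Chance flags about 1 in 20 such groups. Z mouse 1410 was far below the other Z mice in Glul (8.02, the next at 9.06) and in Lgr5 (1.91, the next at 2.94), and it is the Z library with Prss2 above 0 (1.65 log2 CPM) and has a clock value of 0.0252 beside a Z mean of 2.39. The part of either was not tested. Axin2 in Z LIRKO mouse 1450 was at 4.73, the next at 3.44. In the homozygous table Cyp1a2 was at 8.33 in LIRKO mouse 1483 (the next at 7.92), and Slc1a2 at 7.66 in LIRKO mouse 1474 (the next at 7.92).

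Effects differed between groups in 5 cases by a test of the difference itself (limma). The effect of joint insulin receptor and FOXO1 loss differed from that of insulin receptor loss for Glul (-0.99), Axin2 (-1.94) and Cyp2e1 (-1.01). These effects came from mice with different source labels. The effect of insulin receptor loss differed with and without the homozygous transgene for Oat (1.22) and Slc1a2 (1.19).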

How the results depend on the processing

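No paired analysis was possible because the groups compared within a table share no mouse numbers; the 7 mice with numbers in both tables belong to the same groups in separately scaled tables. No call turned round in 856 values from other settings (25 lost, 25 gained) or 1240 with a mouse left out (62 lost, 14 gained), and 41 values without a call changed sign. With the clock value in the fit, the calls among 8 genes were 0 for Z against WT (1 as reported), 0 for Zstar against WT (2), 2 and 1 for LIRKO against WT in the hemizygous and homozygous tables (0), 3 for Z LIRKO against Z (5), 2 for Z LIRKO F1KO against Zstar (1), 2 for ZZ against WT (1) and 1 for the ZZ interaction (2). With only the compared groups they were 3 and 1 for LIRKO against WT, 2 for Z LIRKO F1KO against Zstar and 1 for the F1KO difference (3). Without libraries with Prss2 above 0, which leaves 1 WT mouse in each table, assumed to vary like the other groups, they were 1 for LIRKO against WT (hemizygous), 1 for Zstar against WT (Cyp2e1, gained, with both reported calls lost), 3 for Z LIRKO F1KO against Zstar and 1 for the ZZ interaction. Plain-sum library sizes gave 3 for Z LIRKO F1KO against Zstar and 2 for ZZ against WT. Voom weights gave 0 for Z against WT and 2 for ZZ against WT, and averaging Z with Zstar gave 0. The causes were not tested. In LIRKO or Zstar against WT the clock values did not overlap, so there the fit with the clock value cannot separate clock from group. With each mouse left out the calls ran from 0 to 2 for Z against WT, 1 to 3 for Zstar against WT, 2 to 3 for Zstar against Z, 2 to 4 for Z LIRKO against Z, 1 to 3 for Z LIRKO F1KO against Zstar, 1 to 3 for the F1KO difference, 1 to 2 for ZZ against WT, 2 to 3 for ZZ LIRKO against ZZ, 0 to 1 for ZZ LIRKO against LIRKO and 0 to 2 for the ZZ interaction. Plain-sum sizes moved the median of all genes to 0.20 in Z LIRKO F1KO against Zstar, -0.19 in ZZ LIRKO against ZZ, 0.15 in the F1KO difference and -0.25 in the ZZ interaction. Depth limits Axin2 and Lgr5 most, with as few as 44 and 80 reads.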
